A study of Homo sapiens with 4 samples.

Results

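The 10 genes described here encode secreted cytokines and chemokines that the prostate cancer cell line PC3 transcribes: IL6, LIF, IL1A, IL1B, IL24, CXCL8, CXCL1, CXCL2, CCL20 and CCL26. They are 10 of the 57963 genes in the tables, and each was found by its symbol. They were chosen by their levels and by their differences between gates and between replicates in earlier results of the same 4 libraries, so every value of these 10 genes below is a description and none carries a test. The line carries a lentiviral reporter, SORE6-dsGFP, in which sites bound by SOX2 and OCT4 drive a destabilized green fluorescent protein, and stable cells had been selected with puromycin (5 µg/ml). Cells at passages 18 to 22, grown in medium with serum, were sorted by fluorescence into SORE6+ cells, which the labels call cancer stem cells, and SORE6- cells, which they call non cancer stem cells. Total RNA of 2 SORE6+ and 2 SORE6- libraries was sequenced, with replicates numbered 1 and 2 in each gate. All 4 libraries came from the same transduced line without any further treatment, and the gates are defined by the reporter signal alone, which limits the SORE6+ libraries as a model of stem cells in a tumor.

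Cytokines are short-range protein signals. IL-6 and LIF bind receptors that share the chain gp130 and activate JAK kinases and STAT3, while IL-1α and IL-1β bind the receptor IL1R1, which activates NF-κB through MyD88 and IRAK kinases. CXCL8, CXCL1 and CXCL2 recruit neutrophils through the receptors CXCR1 and CXCR2. NF-κB, AP-1 and C/EBP factors at the promoters of many of these genes switch them on within minutes to hours of a stimulus, and AU-rich elements in the 3′ UTR of the mRNA speed its decay, so that their mRNA levels follow recent signals closely. Carcinoma lines such as PC3, which was derived from a bone metastasis and grows without androgen, often transcribe several of them without an added stimulus.

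The promoters of the genes that differed most are shown first, because they hold or lack the letters that NF-κB and AP-1 are known to favor. The sequences are from RefSeq (GRCh38.p14), which had an entry for 9 of the 10 genes; LIF had none. Each line gives the 150 bases before the transcription start, 5′ to 3′ on the strand of the gene. Capitals mark matches to 3 sets of letters, which were searched on both strands of the 250 bases before each start: GGANTTTCC, a form of the NF-κB site, TGANTCA, the AP-1 site, and TATAAA, the TATA box. The letters for NF-κB were settled after these promoters had been seen.
CXCL8, chr4:73740419-73740568, plus strand: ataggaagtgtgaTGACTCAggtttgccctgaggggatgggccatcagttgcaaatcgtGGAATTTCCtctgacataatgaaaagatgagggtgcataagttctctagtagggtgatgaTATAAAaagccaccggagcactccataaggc
CXCL1, chr4:73869243-73869392, plus strand: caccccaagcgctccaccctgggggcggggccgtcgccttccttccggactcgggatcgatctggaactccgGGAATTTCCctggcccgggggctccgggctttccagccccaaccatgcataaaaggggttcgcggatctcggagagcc
CXCL2, chr4:74099196-74099345, minus strand: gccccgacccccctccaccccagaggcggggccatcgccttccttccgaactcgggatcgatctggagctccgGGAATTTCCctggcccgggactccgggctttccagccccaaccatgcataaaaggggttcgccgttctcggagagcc
IL6, chr7:22727050-22727199, plus strand: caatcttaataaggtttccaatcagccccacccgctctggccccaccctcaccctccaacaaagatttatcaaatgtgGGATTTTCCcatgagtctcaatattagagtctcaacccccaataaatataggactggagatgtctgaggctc
IL24, chr1:206897293-206897442, plus strand: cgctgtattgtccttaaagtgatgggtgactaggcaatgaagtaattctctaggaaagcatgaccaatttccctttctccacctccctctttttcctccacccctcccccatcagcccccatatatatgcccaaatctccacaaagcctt
CCL26, chr7:75789747-75789896, minus strand: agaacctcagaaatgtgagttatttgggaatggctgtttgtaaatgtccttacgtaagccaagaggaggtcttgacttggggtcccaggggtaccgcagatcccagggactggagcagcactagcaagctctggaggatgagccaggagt

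GGANTTTCC was present in the promoters of CXCL8, CXCL1, CXCL2 and IL6 and in none of the other 5 promoters searched. Over all 35116 promoters in the table, 510 (1.45%) held it. Counted from the start, with -1 as the base just before it, it spanned -91 to -83 in CXCL8, -78 to -70 in CXCL1, -77 to -69 in CXCL2 and -72 to -64 in IL6. TGANTCA was found in CXCL8, from -137 to -131, and in IL1A (6.57% of all promoters). TATAAA was found in CXCL8, from -31 to -26, in CCL20, from -29 to -24, and in the window of an upstream start of IL1A (10.7% of all promoters). The 3 sets of letters do not overlap in these windows, and IL24, IL1B and CCL26 held none of them. CXCL1 and CXCL2 lie in the same region of chromosome 4 and arose by duplication. Compared base by base from the start without gaps, they had the same base at 95 of 150 positions (63.3%), against 44 (29.3%) for CXCL1 with CXCL8. GGANTTTCC began at -78 in CXCL1 and at -77 in CXCL2, so bases upstream of it were compared out of register. The share therefore understates the likeness of CXCL1 and CXCL2. These matches describe letters in a window and not the binding of a factor.

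The densest stretch of the pentamer ATTTA, the core of the AU-rich element, is shown for the same genes and for IL1B and LIF, since the mRNAs differed widely in how much of it they carry. Each line is a window of 30 bases of the 3′ UTR of 1 transcript per gene (GENCODE v29), with the pentamers in capitals.
CXCL8: taacctATTTAttATTTAtgtATTTATTTA
CXCL1: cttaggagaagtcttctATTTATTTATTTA
CXCL2: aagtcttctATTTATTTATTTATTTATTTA
IL6: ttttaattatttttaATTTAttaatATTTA
IL1B: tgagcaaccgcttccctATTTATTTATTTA
IL24: agattcttgtATTTAttacaactctATTTA
LIF: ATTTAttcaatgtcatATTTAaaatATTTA

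In CXCL2, 5 pentamers overlapped in a row. Over the whole 3′ UTR, IL6 carried 6 pentamers in 429 bases (14.0 per kb), CXCL2 10 in 721 bases (13.9 per kb), IL1B 6 in 610 bases (9.84 per kb), CXCL8 9 in 1252 bases (7.19 per kb) and CXCL1 5 in 706 bases (7.08 per kb). CCL20 (6.65 per kb), IL1A (4.34), IL24 (3.72) and LIF (2.18) were less dense, and the 160 bases of CCL26 held no pentamer. The median of the 12586 tested genes with a 3′ UTR was 1.59 per kb, so 9 of the 10 genes lay above it. The longer form TTATTTATT, a tighter match to the site of the decay factor ZFP36, was present in IL1B, CXCL8, CXCL1, CXCL2 and LIF and in 8.39% of the tested genes.

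The deposited values are TPM (transcripts per 1000000 transcripts), a unit that corrects for gene length and adds up to 1000000 in each library. They keep no read counts, so the number of reads behind a value is unknown and its precision is known only from the 2 replicates. Differences are in log2(TPM + 1), a scale that shrinks changes of genes near or below 1 TPM, and ratios are ratios of TPM. Of the 10 genes, 9 reached 1 TPM in at least 2 libraries, as 17642 genes did in all, and IL1A did not. The cells were checked against fixed marker genes. KRT8, KRT18 and KRT19, keratins of simple epithelia, lay between 663 and 1162 TPM, while KRT5 of basal cells was at most 0.106 and KLK3 (PSA) 0 in every library. The pan-leukocyte marker PTPRC was at most 0.746 TPM, CD14 at most 0.287 and CD3E at most 0.0435, while CD68, a marker of macrophages and a lysosomal protein of other cells, was at 27.5 to 53.8 TPM and CSF1R at 0.861 to 3.06 TPM. In bulk RNA, fewer cells that transcribe a gene and less of its RNA per cell cannot be told apart.

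**Figure D1:**
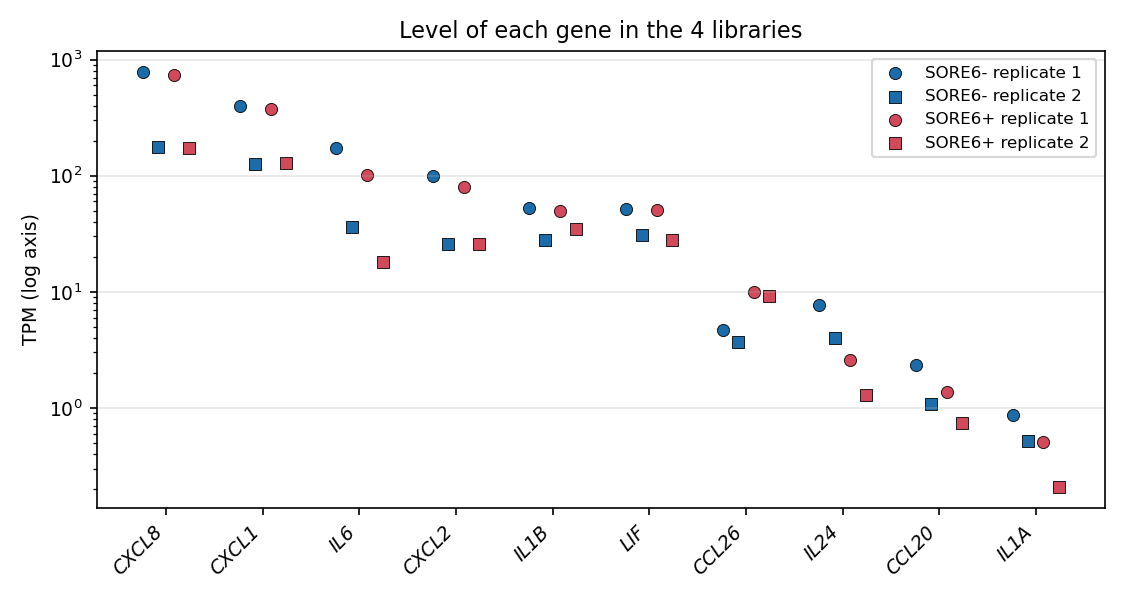
TPM (log axis) of the 10 genes in each of the 4 libraries, ordered by mean; colors mark the gates and symbols the replicates, and each point is 1 library. CXCL8, CXCL1, IL6 and CXCL2 separate by replicate, whereas CCL26 and IL24 separate by gate.

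The genes spanned about 3 orders of magnitude in level. CXCL8 had the highest mean over the 4 libraries, 467 TPM, followed by CXCL1 (257 TPM), IL6 (82.3 TPM), CXCL2 (58.2 TPM), IL1B (41.6 TPM), LIF (40.5 TPM), CCL26 (6.89 TPM), IL24 (3.88 TPM), CCL20 (1.39 TPM) and IL1A (0.525 TPM). CXCL8 exceeded CXCL1 in 4 of 4 libraries and CXCL1 exceeded IL6 in 4 of 4. IL6, CXCL2, IL1B and LIF changed places between libraries: IL6 exceeded CXCL2 in 3 of 4 libraries, CXCL2 exceeded IL1B in 2 and IL1B exceeded LIF in 2. CCL26 and IL24 also changed places, CCL26 being the higher in both SORE6+ libraries and in neither SORE6- library. Among the protein-coding genes CXCL8 ranked 145th in the SORE6- library of replicate 1 and 715th in that of replicate 2.

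Replicate 2 held far less of the neutrophil-attracting chemokines and of IL6 than replicate 1 did, in both gates, and less of all 10 genes. Summed over the 10 genes, the level was 1583 TPM (SORE6-) and 1403 TPM (SORE6+) in replicate 1 and 434 and 420 TPM in replicate 2. CXCL8, CXCL1 and CXCL2 together made up 81.4% and 84.6% of that sum in replicate 1 and 75.9% and 77.9% in replicate 2. The libraries of a replicate may share a culture, a sort or a day, none of which the labels state, and these cannot be told apart.

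CXCL8 (interleukin 8; ENSG00000169429, chr4:73740506-73743716 in GRCh38), the main neutrophil chemokine of epithelial cells, was at 790 TPM in SORE6- and 731 TPM in SORE6+ cells of replicate 1 and at 176 and 172 TPM in those of replicate 2. Both libraries of replicate 1 were high and both of replicate 2 low, with almost nothing between the gates. The ratio of replicate 1 to replicate 2 was 4.50 in SORE6- and 4.24 in SORE6+ cells, and the mean log2 difference of replicate 2 from replicate 1 was -2.12, which 85 of the 17642 tested genes (0.482%) fell below. The gate averages of CXCL8, 483 ± 435 TPM in SORE6- and 452 ± 395 TPM in SORE6+ cells (SD, n = 2 each), differed by far less than this spread.

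CXCL1 (GRO-α; ENSG00000163739, chr4:73869393-73871242), a ligand of CXCR2, followed the same pattern, with 398 and 374 TPM in SORE6- and SORE6+ cells of replicate 1 and 127 and 129 TPM in replicate 2. CXCL2 (GRO-β; ENSG00000081041, chr4:74097035-74099293), its close paralog, was at 100.2 and 80.8 TPM in replicate 1 and at 25.9 and 26.1 TPM in replicate 2. The ratios of replicate 1 to replicate 2 were 3.12 and 2.90 for CXCL1 and 3.86 and 3.10 for CXCL2, in SORE6- and SORE6+ cells respectively. For both genes the 2 replicates did not overlap and the gates did. These paralogs share exact sequence, which makes the split of reads between them less certain: 22.4% of the 31-base words of CXCL2 transcripts, mainly with CXCL3, and 14.4% of those of CXCL1, mainly with CXCL2, occurred in transcripts of another gene, against 0 for CXCL8 and the other 7 genes.

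IL6 (ENSG00000136244, chr7:22725884-22732002), the founding ligand of the gp130 family, varied most of all 10 genes, with a 9.58-fold range over the 4 libraries. It was at 173.7 TPM in SORE6- and 101.4 TPM in SORE6+ cells of replicate 1 and at 36.1 and 18.1 TPM in those of replicate 2. The order of the libraries was thus set first by replicate and then, within each replicate, by gate. Replicate 1 exceeded replicate 2 by 4.82-fold in SORE6- and 5.59-fold in SORE6+ cells, and SORE6- exceeded SORE6+ cells by 1.71-fold in replicate 1 and 1.99-fold in replicate 2. The gate averages of 104.9 ± 97.3 TPM (SD, n = 2) in SORE6- and 59.8 ± 58.9 TPM (SD, n = 2) in SORE6+ cells overlapped. The mean log2 difference between gates, -0.86, rested on comparing libraries of the same number: it became 0.26 when the SORE6- library of replicate 1 was left out and 0.35 when the SORE6+ library of replicate 2 was, against -1.98 and -2.07 when the SORE6- library of replicate 2 or the SORE6+ library of replicate 1 was. Relative to CXCL8 in the same library, IL6 was at 22.0% and 20.5% in the SORE6- libraries and at 13.9% and 10.5% in the SORE6+ libraries of replicates 1 and 2. On this scale the gates did not overlap for IL6 and IL24. They did overlap for IL1A and for CCL26, which was at 0.598% and 2.09% in SORE6- and at 1.36% and 5.35% in SORE6+ libraries. How many of all tested genes lie apart on this scale was not counted. An antisense transcript overlapping IL6 was at most 1.71 TPM, and whether the counting used strand is not given in the sources used here.

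LIF (leukemia inhibitory factor; ENSG00000128342, chr22:30240447-30246851), which signals through LIFR and gp130 and maintains mouse embryonic stem cells in culture, was at 52.0 TPM in SORE6- and 50.6 TPM in SORE6+ cells of replicate 1 and at 31.1 and 28.2 TPM in replicate 2. The gates were nearly level, with ratios of SORE6+ to SORE6- of 0.973 and 0.907, and the replicates lay apart by 1.67-fold and 1.80-fold. Its fall from replicate 1 to replicate 2 was the smaller of the gp130 ligands described. A transcript antisense to LIF was between 2.56 and 6.19 TPM.

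IL1B (ENSG00000125538, chr2:112829751-112836903), which encodes a precursor that inflammasome caspases cut into active IL-1β, was at 53.2 TPM in SORE6- and 50.1 TPM in SORE6+ cells of replicate 1 and at 28.2 and 34.8 TPM in replicate 2. Its gate difference turned with the pair, as those of CXCL1 and CXCL2 did, slightly lower in SORE6+ cells in replicate 1 (ratio 0.942) and higher in replicate 2 (ratio 1.24). IL1A (ENSG00000115008, chr2:112773915-112784590), whose precursor is itself active and which neighbors IL1B, was at 0.869 and 0.506 TPM in replicate 1 and at 0.517 and 0.207 TPM in replicate 2. Both SORE6+ values of IL1A lay below both SORE6- values, although 0.506 and 0.517 are nearly equal and such low levels are poorly determined. IL1B was thus transcribed at a mean of 41.6 TPM in a line in which IL1A was close to the limit of what was tested.

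IL24 (ENSG00000162892, chr1:206897443-206904139), a cytokine of the IL-10 family first found as a gene induced when melanoma cells differentiate, was at 7.66 TPM in SORE6- and 2.58 TPM in SORE6+ cells of replicate 1 and at 4.02 and 1.28 TPM in replicate 2. Both SORE6+ libraries lay below both SORE6- libraries. SORE6- exceeded SORE6+ cells by 2.97-fold and 3.14-fold in the 2 pairs, the largest gate ratios of the 10 genes, and the gate averages were 5.84 ± 2.58 and 1.93 ± 0.917 TPM (SD, n = 2 each). Its replicate difference was smaller, 1.91-fold and 2.01-fold. The mean log2 difference between gates was -1.21, and 180 of the 17642 tested genes lay below it.

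CCL26 (eotaxin-3; ENSG00000006606, chr7:75769533-75789896), a ligand of CCR3 that attracts eosinophils, moved the other way. The SORE6- libraries of replicates 1 and 2 held 4.73 and 3.68 TPM and the SORE6+ libraries 9.94 and 9.21 TPM. The SORE6+ values lay above both SORE6- values, with ratios of 2.10 and 2.50 in the 2 pairs and gate averages of 4.20 ± 0.740 and 9.57 ± 0.512 TPM (SD, n = 2 each). CCL26 was also the gene that differed least between replicates, by 1.28-fold and 1.08-fold. Its mean log2 difference between gates was 1.03, which 157 of the tested genes exceeded.

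CCL20 (ENSG00000115009, chr2:227805739-227817564), the ligand of CCR6 on Th17 and immature dendritic cells, was at 2.36 and 1.38 TPM in SORE6- and SORE6+ cells of replicate 1 and at 1.07 and 0.743 TPM in replicate 2. It was lower in SORE6+ cells in both pairs, with SORE6- exceeding SORE6+ by 1.71-fold and 1.45-fold, and lower in replicate 2 in both gates. Its gates overlapped, since the SORE6+ library of replicate 1 lay above the SORE6- library of replicate 2.

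**Figure D2:**
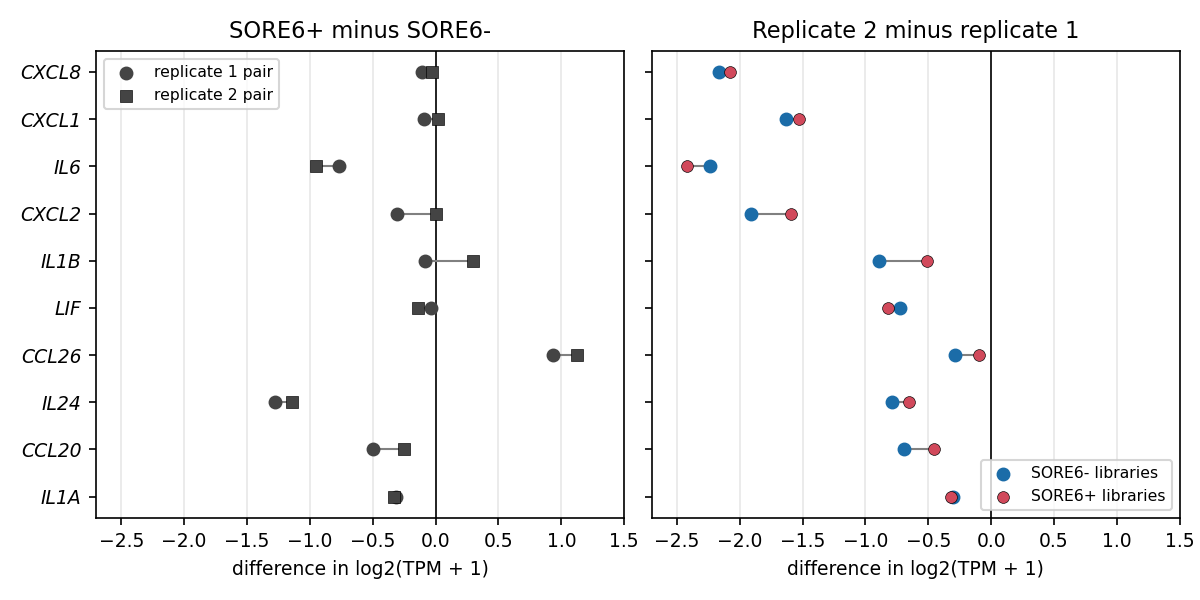
Differences in log2(TPM + 1) of each gene, SORE6+ minus SORE6- in each pair (left) and replicate 2 minus replicate 1 in each gate (right); each point is the difference of 2 libraries. CCL26 is to the right of 0 in both pairs at 0.93 and 1.13, IL24 to the left at -1.28 and -1.14, and all 10 genes are to the left of 0 between replicates.

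Between gates, 1 of the 10 genes (CCL26) was higher in SORE6+ cells in both pairs and 6 (IL6, IL24, IL1A, CXCL8, LIF and CCL20) were lower in both, while IL1B, CXCL1 and CXCL2 turned with the pair. Of the 9 that reached the minimum level, 1 was higher and 5 were lower. Of all tested genes, 23.2% were higher and 42.3% lower in both pairs, so these counts are near the background. SORE6+ and SORE6- libraries did not overlap for CCL26 (10.9% of the tested genes lay apart in that direction) and for IL24 and IL1A (20.2% in the other). With relative log expression factors in place of TPM as deposited, IL1B and CXCL1 were also higher in SORE6+ cells in both pairs and CXCL8 and LIF were no longer lower in both, so the direction of these 4 genes depends on the scaling. The median difference of the 10 genes was -0.12 on the log2 scale, against -0.05 over all tested genes.

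Over all 17642 tested genes, limma called none between gates in either direction (0.0% higher and 0.0% lower), where a call needs an adjusted p below 0.1 and a change of 1.5-fold or more. At an unadjusted p under 0.05 there were 673 genes, and the smallest adjusted p was 0.202. For a single gene, 2 libraries in each gate allow no two-sided p below 0.333 in an exact permutation test. The fit held no replicate term, so differences between replicates counted as error. The paper, with DESeq2 at the same thresholds, reported genes both higher and lower in SORE6+ cells. The absence of calls here is thus a result of this fit and does not show that the gates are alike.

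Between replicates, all 10 genes were lower in replicate 2 in both gates, against 48.3% of the tested genes, and for 7 of them both libraries of replicate 2 lay below both libraries of replicate 1, against 36.8%. The replicates overlapped for IL24, IL1A and CCL26. Those at least 2-fold lower in both gates on the log2(TPM + 1) scale were CXCL8, CXCL1, CXCL2 and IL6, against 2.22% of the tested genes. Since the genes were chosen with these differences known, nothing is read from these counts. Under relative log expression factors the difference of CCL26 in SORE6+ cells was 0.00 and the other 9 genes stayed lower in both gates. That scaling raised the median difference of all tested genes by 0.102, from -0.09 to 0.01, and relative to the median under TPM the mean differences were -2.24 for IL6, -2.03 for CXCL8, -1.66 for CXCL2, -1.49 for CXCL1 and -0.11 for CCL26. For 7 of the 10 genes the mean difference between replicates was larger in size than that between gates. IL24, IL1A and CCL26 were the 3 for which it was smaller.

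**Figure D3:**
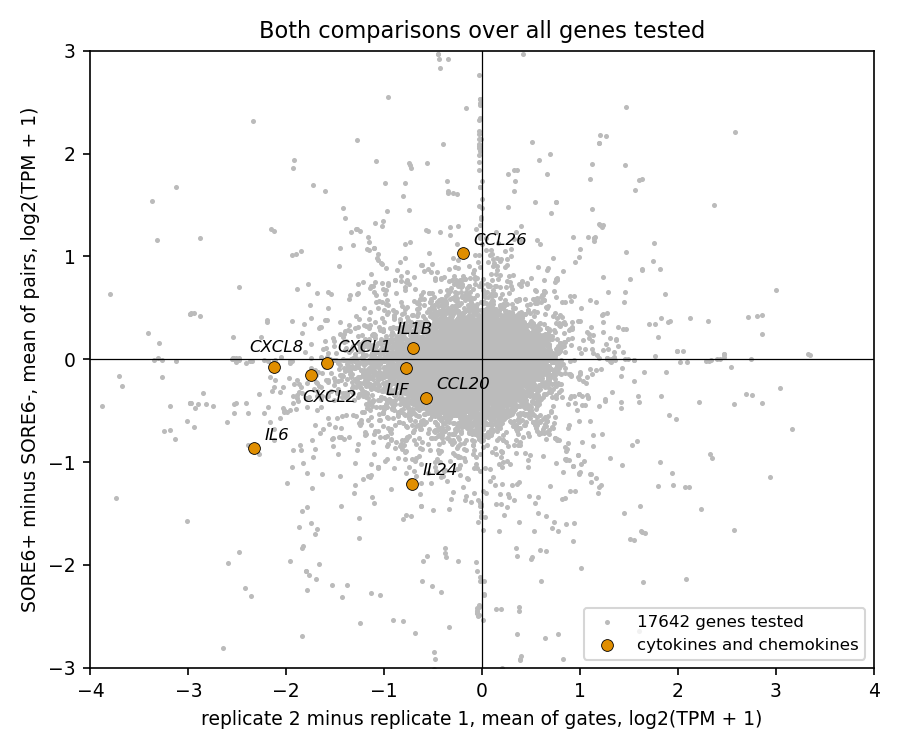
Mean log2(TPM + 1) difference of replicate 2 from replicate 1 (horizontal) and of SORE6+ from SORE6- (vertical) for the 17642 tested genes (grey) and the 9 described genes among them (orange); 20 genes lie outside the axes. CXCL8, CXCL1 and CXCL2 lie far to the left at a height near 0, IL6 is low on both axes (-2.33 and -0.86), and CCL26 and IL24 stand above and below the center.

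The size of the replicate difference can be set beside the sequences shown above. The 4 genes at least 2-fold lower in replicate 2 were the 4 whose promoters held GGANTTTCC, among the 9 genes with a promoter entry. Their 3′ UTRs carried between 7.08 and 14.0 pentamers per kb. IL1B, at 9.84 per kb and without those promoter letters, differed by 1.89-fold and 1.44-fold, and CCL26, with neither, differed least. These 10 points share the same 4 libraries, and the genes were chosen with their replicate differences known. The letters were settled after the promoters had been seen. This is therefore a description, and a link between the letters and the levels was not tested.

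Over all tested genes, limma with gate as a term called 298 genes higher (1.69%) and 1212 lower (6.87%) in replicate 2 by the same thresholds. With relative log expression factors the split was 483 higher and 873 lower, or 35.6% higher in place of 19.7%, and with no filter on low values no gene passed (6266 at an unadjusted p under 0.05). The lists that follow hold related genes grouped by function and were also chosen with earlier results of these data known. Counts of called genes in a list are therefore descriptions. Each p is adjusted over all tested genes. None of their genes passed between gates in the fit of gate alone. With the replicate number as a block over protein-coding genes, limma called 0.554% of 12826 genes higher and 0.725% lower in SORE6+ cells, and of the listed genes CD68 was higher (adjusted p = 0.023) and ATF3 (0.044) and FOS (0.058) were lower.

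Of 53 other cytokine genes, 20 reached the minimum level, and 10 were at 0 in all 4 libraries. In replicate 2, 8 of the tested ones were higher and 9 lower in both gates, where 48.3% of all tested genes were lower. Limma called 3 higher and 2 lower. CSF2 (GM-CSF), the growth factor of granulocytes and macrophages, was at 21.5 and 19.9 TPM in SORE6- and SORE6+ cells of replicate 1 and at 7.66 and 6.53 TPM in replicate 2, and fell by 1.43 on the log2 scale (SE 0.087, limma adjusted p = 0.029). IL37, an anti-inflammatory member of the IL-1 family, was lower by a smaller margin, at 3.14 and 2.30 TPM against 1.39 and 1.19 TPM (adjusted p = 0.097), and was not called with relative log expression factors (adjusted p = 0.117). CLCF1, a further ligand that signals through gp130, rose instead, from 38.2 and 41.0 TPM to 67.7 and 84.3 TPM (log2 difference 0.92, SE 0.076, adjusted p = 0.035), as did IL32 (0.75, SE 0.077, adjusted p = 0.042) and IL17D (0.74, SE 0.140, adjusted p = 0.072). MIF, the most abundant of the list at 354 to 543 TPM, and IL18 at 80.6 to 111 TPM did not pass. The other tested ligands of receptors with gp130, named here after their values were seen, did not pass: IL11 (log2 difference 0.07, adjusted p = 0.577), CTF1 (-0.08, adjusted p = 0.771) and CNTF (-0.51, adjusted p = 0.147). IL33, an alarmin of the IL-1 family, was called lower with protein-coding genes only (adjusted p = 0.019, against 0.101 over all tested genes).

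Of 32 other chemokine genes, 6 reached the minimum level and 10 were at 0 in all libraries. Both that passed encode CXC chemokines of the neutrophil-attracting group and were lower in replicate 2. CXCL6 was at 33.7 and 37.0 TPM in SORE6- and SORE6+ cells of replicate 1 and at 13.8 and 19.7 TPM in replicate 2 (log2 difference -1.06, SE 0.116, limma adjusted p = 0.043), and CXCL3 was at 29.4 and 22.0 TPM against 12.8 and 13.1 TPM (-0.93, SE 0.137, adjusted p = 0.056). CXCL6 and CXCL3 share 5.20% and 9.54% of their 31-base words with other genes. CXCL5 of the same group did not pass (0.23, adjusted p = 0.344), nor did CXCL16, a membrane-bound chemokine and the most abundant of the list at 47.1 to 69.3 TPM, nor CCL28 at 7.09 to 12.3 TPM. PF4, a platelet chemokine, was called lower with protein-coding genes only (adjusted p = 0.026, against 0.108 over all tested genes).

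Of 25 receptor genes, 16 reached the minimum level, and 1, IL6R, passed. This ligand-binding chain of the IL-6 receptor was at 2.92 and 3.43 TPM in SORE6- and SORE6+ cells of replicate 1 and at 5.63 and 7.39 TPM in replicate 2 (log2 difference 0.84, SE 0.130, limma adjusted p = 0.059), a call lost without the gate term. IL6R was thus higher in the libraries in which IL6 was lower. IL6ST, which encodes gp130, was at 23.1 and 14.9 TPM in SORE6- and SORE6+ cells of replicate 1 and at 17.0 and 13.4 TPM in replicate 2, and OSMR was at 24.7 to 29.4 TPM. IL10RB, a chain of several receptors of the IL-10 family, lay between 12.5 and 14.2 TPM. IL1RL1, the IL-33 receptor, had the largest replicate difference among receptors with a mean of at least 5 TPM but did not pass (adjusted p = 0.149), although it was called lower with protein-coding genes only (adjusted p = 0.029). CXCR1 and CXCR2, the receptors of CXCL8, CXCL1 and CXCL2, were listed at 0 in all 4 libraries.

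Of 21 signal transducer genes, 18 reached the minimum level and 2 passed, SOCS3 and SOCS1, feedback inhibitors of JAK kinases that cytokine signaling itself induces. SOCS3 was at 31.1 and 35.1 TPM in SORE6- and SORE6+ cells of replicate 1 and at 13.7 and 16.4 TPM in replicate 2 (log2 difference -1.09, SE 0.068, limma adjusted p = 0.031), and SOCS1 fell from 3.52 and 3.98 TPM to 1.82 and 2.40 TPM (adjusted p = 0.095), a call lost with relative log expression factors (adjusted p = 0.121). CISH, a feedback inhibitor of the same family, went the other way, from 0.805 and 0.831 TPM to 2.29 and 1.56 TPM (log2 difference 0.68, adjusted p = 0.129), and was called higher with protein-coding genes only (adjusted p = 0.032). The kinases IRAK1 (172 to 186 TPM) and TYK2 (79.1 to 114 TPM) were among the most abundant of the list and did not pass, nor did IRAK2 (5.41 to 9.77 TPM). STAT3, STAT5A and STAT5B were listed at 0.19 TPM or less in all libraries.

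All 20 transcription factor genes of the list reached the minimum level. In replicate 2, 19 were lower in both gates, against 48.3% of all tested genes. Limma called 9 of them lower: ATF3, JUN, FOSB, FOS, JUND, NFKBIZ, ETS1, CEBPB and FOSL2. None was called higher. With relative log expression factors 8 were called lower, FOSL2 being lost, and without the gate term 7 were. ATF3, a stress-induced factor of the AP-1 type, was at 551 and 374 TPM in SORE6- and SORE6+ cells of replicate 1 and at 146 and 59.3 TPM in replicate 2 (log2 difference -2.28, SE 0.202, limma adjusted p = 0.037). Like IL6 it was lower in replicate 2 and, within each replicate, in SORE6+ cells. It was not alone in this, since 14 of the 20 factors were lower in SORE6+ cells in both pairs, against 42.3% of all tested genes. JUN, a core subunit of AP-1, was at 103.8 and 83.2 TPM against 22.6 and 18.1 TPM (-2.15, SE 0.052, adjusted p = 0.026). FOSB was at 111.8 and 95.6 TPM against 33.4 and 18.9 TPM (-2.00, SE 0.164, adjusted p = 0.035), and FOS at 153.2 and 118.1 TPM against 85.3 and 39.3 TPM (-1.20, SE 0.204, adjusted p = 0.064). NFKBIZ, an NF-κB cofactor that the IL6 promoter requires in mouse macrophages, fell by 1.11 (SE 0.069, adjusted p = 0.031). The NF-κB subunits RELB (-0.53, adjusted p = 0.086), NFKB1 (-0.43, adjusted p = 0.066), NFKB2 (-0.29, adjusted p = 0.093), REL (-0.22, adjusted p = 0.374) and RELA (-0.07, adjusted p = 0.383), given here after their values were seen, did not pass both thresholds, nor did FOSL1, at 576 to 712 TPM the most abundant factor, or ELF3 at 142 to 233 TPM.

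All 12 genes whose proteins regulate decay of cytokine mRNA reached the minimum level. In replicate 2, 11 were lower in both gates, against 48.3% of all tested genes, and limma called 2 of them lower. ZFP36 (tristetraprolin), which binds AU-rich elements and brings in the deadenylase, was at 96.4 and 95.5 TPM in SORE6- and SORE6+ cells of replicate 1 and at 38.3 and 34.3 TPM in replicate 2 (log2 difference -1.38, SE 0.061, limma adjusted p = 0.026). ZC3H12A (Regnase-1), a nuclease that cuts IL6 mRNA at a stem-loop, was at 34.3 and 28.0 TPM against 16.1 and 12.7 TPM (-1.06, SE 0.067, adjusted p = 0.031). Both are themselves induced by cytokine signaling, and both were lower in the libraries in which their target IL6 was lower. The most abundant of the list, KHSRP (312 to 366 TPM), HNRNPD (147 to 201 TPM) and ELAVL1 (68.2 to 83.8 TPM), did not pass.

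Of 13 genes for maturation and release of IL-1, 7 reached the minimum level and none passed in limma. CASP4, an inflammatory caspase, was at 40.5 and 45.5 TPM in SORE6- and SORE6+ cells of replicate 1 and at 56.1 and 66.8 TPM in replicate 2, a difference of 0.50 (adjusted p = 0.043) that missed 1.5-fold, and it was called higher with relative log expression factors (0.62, adjusted p = 0.043). PYCARD, the inflammasome adaptor, was at 6.36 to 10.2 TPM, and GSDMD, which forms the pore through which IL-1β leaves cells, at 53.7 to 81.0 TPM. CAPN2 and CAPN1, which encode calpain proteases that cut pro-IL-1α, were at 239 to 349 and 219 to 269 TPM. CAPNS1, which encodes a regulatory subunit of calpains, was at 618 to 665 TPM. The inflammasome genes CASP1 (0.157 to 0.458 TPM), NLRP3 (0.228 to 0.940 TPM), NLRP1, NLRC4, AIM2 and CASP5 did not reach the minimum level.

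**Figure D4:**
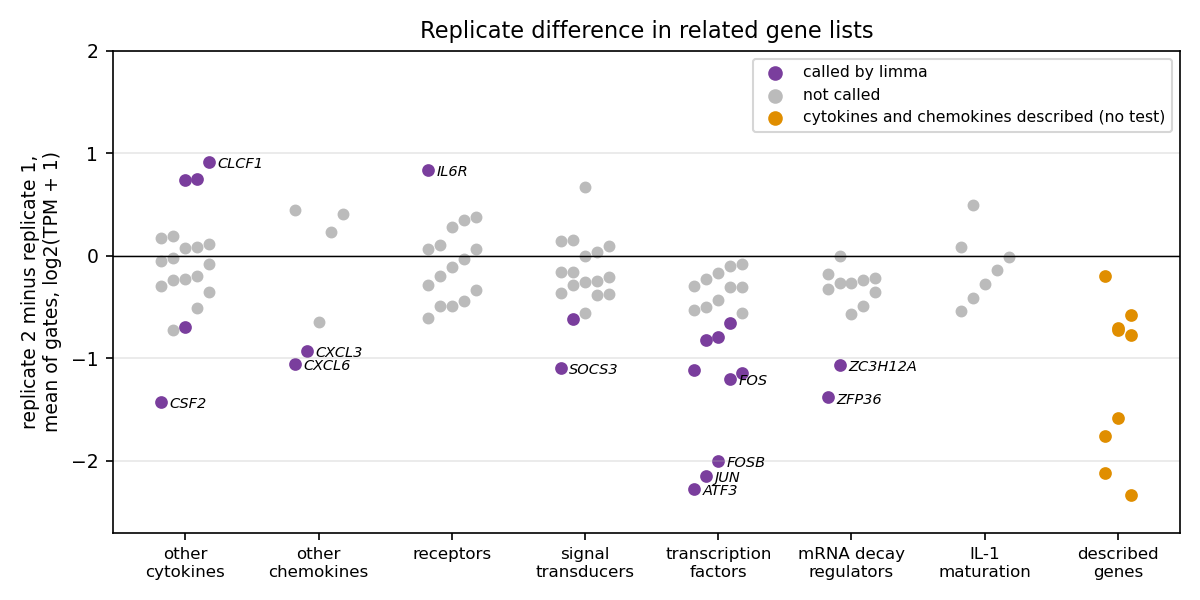
Mean log2(TPM + 1) difference of replicate 2 from replicate 1 for the tested genes of 7 related lists; each point is 1 gene, purple points were called by limma (adjusted p below 0.1, 1.5-fold or more), grey points were not, and orange points are the described genes, which carry no test. ATF3 (-2.28) and JUN (-2.15) lie beside CXCL8 (-2.12) and IL6 (-2.33), and CLCF1 (0.92) and IL6R (0.84) rose.

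Markers of other cells moved with the comparisons in places. Of 8 leukocyte markers, CD68 and CSF1R reached the minimum level, and the sum of the list was 36.3 and 29.4 TPM in the SORE6- libraries of replicates 1 and 2 and 52.3 and 55.8 TPM in the SORE6+ libraries, most of it CD68. CSF1R was lower in replicate 2, at 1.01 and 0.861 TPM against 3.06 and 2.48 TPM (log2 difference -0.96, limma adjusted p = 0.064). Of 7 fibroblast markers, COL1A1 and LUM reached it, and the sum was 40.3 and 31.8 TPM in replicate 1 and 15.4 and 15.4 TPM in replicate 2, most of it COL1A1, while COL1A2, PDGFRB and FAP were at most 0.305 TPM. Of 5 endothelial markers only PECAM1 reached it, at 12.0 to 16.9 TPM, with KDR at 0.163 to 0.188 TPM in SORE6- and 0.630 to 0.768 TPM in SORE6+ libraries and CDH5, TEK and VWF at most 0.261 TPM. The part of other cells in the cytokine values was not tested.

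The protein-coding genes most like CXCL8 and IL24 over the 4 libraries were found among 10366 genes with a mean of at least 5 TPM, by the distance between log2(TPM + 1) profiles centered on their means. For CXCL8 they were RASD1 (distance 0.14), SIK1B (0.23), JUN (0.25), NR4A1 (0.25) and DLGAP5 (0.26). RASD1, a small GTPase induced by glucocorticoids, was at 93.5 and 81.8 TPM in SORE6- and SORE6+ cells of replicate 1 and at 21.0 and 18.1 TPM in replicate 2. NR4A1, an immediate early nuclear receptor, was at 175.8 and 156.1 TPM against 42.6 and 32.6 TPM. For IL24 they were HIST2H2BF (0.05), DHRS2 (0.12), FABP4 (0.24), SNAPC1 (0.35) and HIST2H4B (0.39). DHRS2, a dehydrogenase, was at 11.9 and 4.82 TPM in SORE6- and SORE6+ cells of replicate 1 and at 7.08 and 2.41 TPM in replicate 2. SIK1B and HIST2H4B have near-identical copies, so their values are uncertain, and with 4 libraries such likeness is a description.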

How the data were processed

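RNA of 4 sorted PC3 samples was sequenced as paired ends. The authors trimmed reads with Trim Galore after FastQC and MultiQC, quantified transcripts with Salmon, summarized them per gene with tximport and tested with DESeq2. The deposited values are TPM per gene (GRCh38, from the submitters' processing notes). The sources used here give neither tool versions nor the annotation release.

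The genes and lists were chosen with earlier results of these data known. The 17642 genes that reached 1 TPM in 2 or more libraries were fitted as log2(TPM + 1) in limma 3.58.1 (R 4.3.3, trend in the prior variance, Benjamini-Hochberg), for gate alone and for replicate with gate as a term. A gene was called at an adjusted p below 0.1 and a change of 1.5-fold or more, and the fit was tested on simulated data. Nothing in the sources says that the replicates were separate cultures. For gate alone, p-values measure the spread between the libraries of a gate, which may be technical. For replicate with gate as a term, they rest on how far the replicate difference varied between gates. The libraries of a number may share a culture, so these p-values do not measure the spread between cultures. From the other lists the text names the genes called, the 3 most abundant, and the largest difference in each comparison among genes with a mean of at least 5 TPM. Some genes that this rule or the lists hold are not reported here. Of 57963 gene IDs, 57844 matched GENCODE v29, which gave coordinates and 3′ UTRs. Promoters were from RefSeq. Alternatives were a pseudocount of 0.1, no filter, relative log expression factors, TPM over protein-coding genes, a replicate block, protein-coding genes alone, no gate term, and each library left out.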

Additional observations from a re-analysis of the deposited data

How the results depend on the processing

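The counts of 0 genes called higher and 0 called lower in SORE6+ cells were the same with a pseudocount of 0.1, no filter, relative log expression factors, TPM over protein-coding genes and each library left out. The replicate number as a block gave 0 and 0 over all genes (2982 at an unadjusted p under 0.05). The replicate block over protein-coding genes gave 71 higher and 93 lower, among them CD68 higher and ATF3 and FOS lower of the genes listed here. The methods speak of pairs of sorted cells, and no source says that the number marks the pair. Deviations of same-numbered libraries correlated at 0.344 across genes, which are not independent replicates, and the first principal component (49.8% of the variance) separated the replicates. In replicate 2, 298 genes were called higher and 1212 lower. Without a filter these were 0 and 0, and without the gate term 168 and 753. The genes called higher were 483 with relative log expression factors, 182 with TPM over protein-coding genes and 170 with protein-coding genes only. The cause of these shifts was not tested. Leaving out a library leaves that fit no residual degrees of freedom, so it gave no counts. With relative log expression factors, 3 of the 10 cytokine and chemokine genes were higher in SORE6+ cells in both pairs, not 1, and the mean gate difference changed sign for CXCL1 and CXCL8. With libraries left out it changed sign in 12 of 40 fits (CXCL1, CXCL2, CXCL8, IL1B, IL6 and LIF), and no mean replicate difference changed sign in any alternative. TPM keeps no read counts, so the counting error of a gene is unknown.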
